A study of Mus musculus with 28 samples.

Results

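Left ventricles of Pkp2-deleted mice that had received the higher dose of TN-401 were compared with left ventricles of control mice, to describe what still differed between them. The comparison holds 8 of the 28 libraries of the series, which were picked by their sample titles, 3 from the 6E13 group and 5 from the WT group. Mice of the 6E13 group were C57BL6 animals with floxed Pkp2 alleles and a tamoxifen-activated Cre recombinase driven by the alpha myosin heavy chain promoter, so that the gene is deleted in cardiomyocytes and not in other cells of the heart. They received TN-401, an AAV9 vector that carries human PKP2, at 6E13 vg/kg, a unit of vector genomes for each kg of animal, given 1 week ahead of tamoxifen. WT mice were Cre-negative littermates with the same floxed alleles, injected with HBSS, the buffer used as vehicle. The groups therefore differ in Cre, in deletion of Pkp2, in the vector and in its transgene, and these cannot be told apart in this comparison. Whether WT mice also received tamoxifen is not given in the sources used here. Left ventricles of 4 deleted mice given HBSS (cKO) and of 4 deleted mice given TN-401 at 3E13 vg/kg (3E13) shared the statistical model and serve as points of reference.

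PKP2 encodes plakophilin 2, a protein of the desmosomal plaque, which ties the intermediate filaments of one cardiomyocyte to those of the next at the intercalated disc. Loss of the protein weakens this junction and disturbs the gap junctions and sodium channels that sit beside it, and inherited loss in people causes arrhythmogenic cardiomyopathy, in which muscle is replaced by fibrous and fatty tissue. Scar tissue of this kind is laid down by activated fibroblasts, which secrete collagens, matricellular proteins and enzymes that crosslink the matrix. AAV vectors deliver DNA inside a protein capsid, both of which cells can sense. The interferon-stimulated genes are the common output of such sensing and of cytokines from lymphocytes.

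Each library held between 22964340 and 34984852 estimated reads in the 6E13 group and between 23196687 and 39381176 in the WT group. The mitochondrial genome supplied 33.7% ± 3.51 of the reads at 6E13 (SD, n = 3) and 35.4% ± 1.71 in WT (n = 5), a difference of -1.71 percentage points (two-sided exact permutation p = 0.321, where 0.0357 is the smallest p that 56 arrangements allow). Xist and Ddx3y marked 2 females and 1 male at 6E13 and 3 females and 2 males in WT. Ventricular muscle was present in all 8 libraries, since the 9 ventricular markers summed to between 25775 and 34803 CPM at 6E13 and between 29810 and 31863 CPM in WT. CPM (counts scaled to a common library size by the TMM method) suit comparisons of 1 gene between libraries. The atrial light chain Myl7 and the atrial gene Sln were too low to be tested. In bulk tissue a smaller share of a cell type and less RNA per cell of that type cannot be told apart. The 6E13 animals carry the numbers 250, 631 and 645 and the WT animals 248, 626, 636, 637 and 647, and values per library follow this order throughout. The cKO animals are 177, 180, 257 and 264 and the 3E13 animals 181, 182, 252 and 253. Of the 6E13 and WT animals, only 250 and 248 have numbers within the range of those 2 groups. What the numbers stand for is not given in the sources used here, and their part was not tested. Each library of a ventricle is from a separate animal, so the p-values weigh differences against the spread between animals.

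The targeted gene and the transgene followed the labels. Human PKP2 stood at 535, 333 and 372 CPM in the 6E13 libraries and had 0 reads in each WT library. The lowest 6E13 library was thus at least 2575-fold higher than the limit that 0 reads leave in a WT library (3 reads, at most 0.129 CPM). Mouse Pkp2 (GRCm39, chromosome 16, 16031144 to 16090586, plus strand) stood at 35.9, 43.2 and 39.2 CPM at 6E13, against 117, 110, 121, 111 and 103 CPM in WT, with a wide gap between the groups. Its log2 fold change was -1.51 ± 0.17 (SE), with adjusted p = 0.00138 in edgeR's quasi-likelihood test. On the TPM scale, which corrects for transcript length, the human transcript was between 7.21 and 14.2 times as abundant as the mouse transcript within the 6E13 libraries. Both transcripts together came to 153 ± 55.5 TPM at 6E13 (n = 3), against 34.4 ± 3.34 TPM of mouse Pkp2 in WT (n = 5), or 4.44 times the WT level.

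Besides these, little passed the test. Of 16410 genes tested, 14 were called at an adjusted p under 0.05, which is 0.0853% of them. These were the transgene and 12 mouse genes that rose (0.0792% called on the higher side) and mouse Pkp2, which fell (0.00609% on the lower side). The same model called 5875 genes (35.8%) between cKO and WT and 411 (2.50%) between 3E13 and WT, and these comparisons share the WT libraries with the present one. Counted by an unadjusted p under 0.05, 787 genes were higher at 6E13 (4.80% of those tested) and 238 were lower (1.45%), and 51.1% of all genes had a log2 fold change above 0. The median log2 fold change of all genes was 0.01. The count of calls depended on the model. It was 182 with only the 6E13 and WT libraries in the fit, 98 with DESeq2 and 34 without cKO animal 177, and all 14 genes were among each of these. Leaving out WT animal 248, 626, 637 or 647, or 3E13 animal 181, left 2 calls, the transgene and mouse Pkp2, and the count was 3 without 6E13 animal 250, 4 without 6E13 animal 631 and 4 without WT animal 636.

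**Figure D1:**
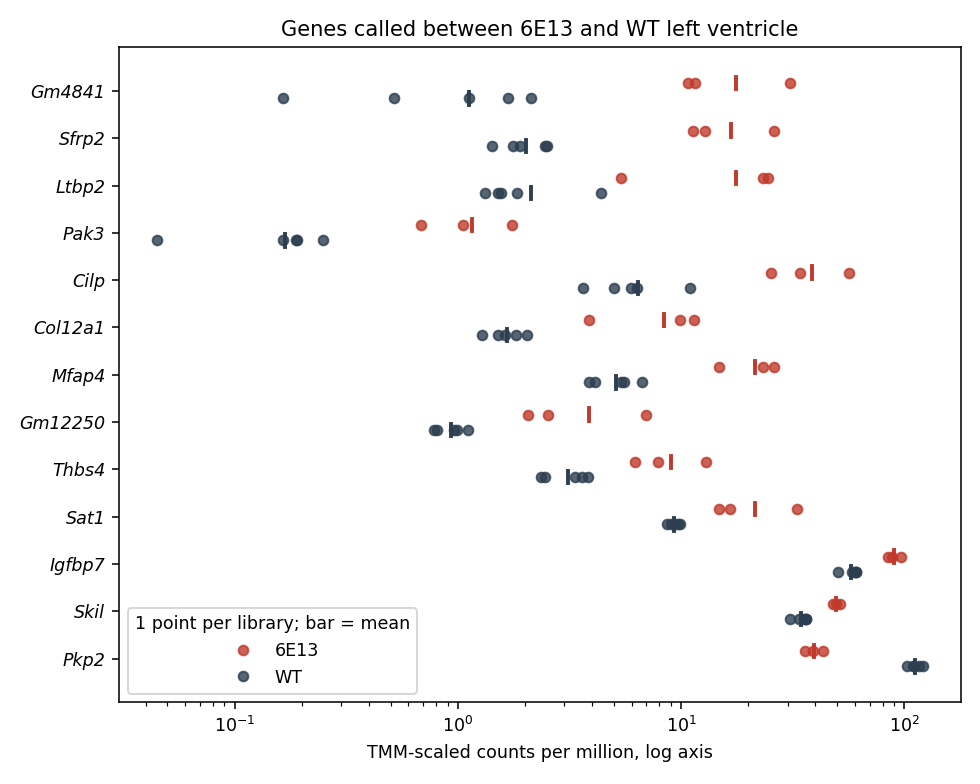
Levels of the 13 mouse genes called between 6E13 and WT left ventricle, in TMM-scaled CPM on a log axis, with 1 point per library, 6E13 (red) above WT (dark) and a bar at each group's mean. In each of the 13 genes the 3 red points lie apart from the 5 dark points, with Pkp2 alone on the lower side.

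Of the 12 mouse genes that rose, 6 encode proteins of the extracellular matrix or proteins that bind to it. Cilp, a matricellular protein of fibroblasts (chromosome 9, 65172200 to 65187888), stood at 34.3, 56.8 and 25.2 CPM at 6E13, against 5.01, 3.65, 11, 5.98 and 6.37 CPM in WT. Its log2 fold change was 2.58 ± 0.41, with adjusted p = 0.0339 in edgeR's quasi-likelihood test. Ltbp2, a protein of elastic microfibrils (chromosome 12, 84829986 to 84923306), stood at 24.4, 23.3 and 5.36 CPM at 6E13, against 1.32, 1.52, 4.38, 1.84 and 1.56 CPM in WT. Animal 645 lay close to the highest WT library here and well below the other 6E13 animals, and the log2 fold change was 3.02 ± 0.49 (adjusted p = 0.0339).

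Col12a1, which encodes a collagen found along the surface of collagen fibrils (chromosome 9, 79506268 to 79626135), stood at 11.4, 9.85 and 3.86 CPM at 6E13, against 1.28, 1.52, 2.04, 1.62 and 1.83 CPM in WT. It had the same order of animals as Ltbp2, with 645 lowest among the treated, and a log2 fold change of 2.33 ± 0.37. Mfap4, a microfibril-associated glycoprotein (chromosome 11, 61376212 to 61379727), stood at 23.3, 26.1 and 14.8 CPM at 6E13, against 6.71, 5.53, 4.10, 5.40 and 3.89 CPM in WT (log2 fold change 2.07 ± 0.34). Thbs4, a thrombospondin of stressed myocardium (chromosome 13, 92888095 to 92931501), was nearer to its control range, at 7.87, 13 and 6.22 CPM at 6E13, against 3.83, 2.46, 3.36, 3.60 and 2.36 CPM in WT, with 1.53 ± 0.27. Igfbp7, a secreted protein that binds insulin-like growth factors (chromosome 5, 77493130 to 77555931), had the smallest p among the mouse genes after Pkp2. It stood at 84.4, 87.7 and 96.5 CPM at 6E13, against 60.5, 50.5, 59.97, 60.6 and 58.1 CPM in WT, so that a small difference (0.63 ± 0.09, adjusted p = 0.0313) was even across animals.

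Of the other genes that rose, 4 act in signaling, the cytoskeleton or metabolism. Sfrp2, a secreted modulator of Wnt signaling (chromosome 3, 83673481 to 83681623), stood at 11.3, 26.2 and 12.9 CPM at 6E13, against 1.42, 1.76, 2.45, 2.52 and 1.91 CPM in WT (3.04 ± 0.49). Skil, a repressor of TGF-beta signaling that TGF-beta itself induces (chromosome 3, 31148816 to 31176740), stood at 51.7, 49.5 and 47.7 CPM at 6E13, against 36.2, 35.5, 30.9, 36.2 and 33.9 CPM in WT (0.52 ± 0.09). Skil was tight within the groups, while animal 631 was apart from the other treated animals in Sfrp2. Pak3, a kinase that acts on the actin cytoskeleton (chromosome X, 142301303 to 142580792), was a low transcript, at 1.06, 1.75 and 0.681 CPM at 6E13, against 0.189, 0.164, 0.248, 0.045 and 0.191 CPM in WT (2.73 ± 0.43). Sat1, the rate-limiting enzyme of polyamine breakdown (chromosome X, 153996128 to 153999452), stood at 16.5, 33.2 and 14.8 CPM at 6E13, against 8.65, 9.02, 9.94, 9.40 and 9.72 CPM in WT (1.20 ± 0.20). Animal 631 was the highest for Sat1, as it was for Cilp, Sfrp2, Thbs4, Pak3 and Mfap4.

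The remaining pair, Gm12250 and Gm4841, encode immunity-related GTPases of the interferon-gamma-induced kind, which coat the vacuoles of intracellular pathogens in mice and are known as Irgb10 and Ifgga3. Gm12250 stood at 6.98, 2.06 and 2.54 CPM at 6E13, against 0.993, 0.779, 0.964, 0.810 and 1.11 CPM in WT (2.05 ± 0.34, adjusted p = 0.0341 in edgeR's quasi-likelihood test). Gm4841 (chromosome 18, 60401377 to 60406349) stood at 30.7, 11.6 and 10.8 CPM at 6E13, against 0.520, 0.164, 2.12, 1.12 and 1.68 CPM in WT (3.94 ± 0.70, adjusted p = 0.0494). Animal 250 was the highest in both genes, and every treated animal lay above every control. These GTPases belong to families of similar genes, so reads could have been shared with relatives during quantification.

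The interferon-response genes stood higher at 6E13 as a list, though none of its 41 members passed on its own. The median log2 fold change was 0.84, 39 members were above 0, and 26 had an unadjusted p under 0.05 on the higher side and none on the lower, against 4.80% of all genes on the higher side. Every 6E13 library was above every WT library in 28 of the 41, against 6.31% of all genes. The members below 0 were the GTPases Gbp4, at -3.99, and Tgtp1, at -0.05, and neither had an unadjusted p under 0.05. The summed level of the list was between 735 and 890 CPM at 6E13 and between 403 and 582 CPM in WT. The Ifit genes, which bind foreign RNA, were apart in all libraries. Ifit3 stood at 14.7, 15.4 and 26.1 CPM at 6E13, against 4.30, 4.55, 7.98, 7.24 and 6.18 CPM in WT (1.62 ± 0.32, adjusted p = 0.108 in edgeR's quasi-likelihood test). Ifit1 stood at 15, 15.2 and 16.5 CPM at 6E13, against 6.05, 5.41, 8.70, 6.52 and 6.29 CPM in WT (1.24 ± 0.26, adjusted p = 0.137). Isg15, a ubiquitin-like modifier, was low but apart, at 2.45, 1.84 and 3.04 CPM at 6E13, against 0.520, 0.492, 0.798, 0.765 and 0.419 CPM in WT (2.01 ± 0.40, adjusted p = 0.108).

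Promoters of 4 interferon-stimulated genes are shown as examples of promoters that hold the letters of the interferon-stimulated response element. They were picked because they hold a match, and Ifit2, whose groups were also apart, has no match in its RefSeq windows. The sequences are from RefSeq (GRCm38.p6) and run from 150 bases before the transcript start up to it, 5′ to 3′ on the gene's strand. Capitals mark each match to GAAANNGAAA or its reverse complement TTTCNNTTTC, the core of the interferon-stimulated response element. The regions are chr11:58183693-58183842 for Gm12250 (plus strand), chr4:156200819-156200968 for Isg15 (minus strand), chr19:34583379-34583528 for Ifit3 (plus strand) and chr19:34640739-34640888 for Ifit1 (plus strand).
Gm12250: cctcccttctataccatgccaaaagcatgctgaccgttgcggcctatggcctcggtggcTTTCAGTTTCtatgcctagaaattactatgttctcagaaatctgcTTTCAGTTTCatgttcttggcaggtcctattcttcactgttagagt
Isg15: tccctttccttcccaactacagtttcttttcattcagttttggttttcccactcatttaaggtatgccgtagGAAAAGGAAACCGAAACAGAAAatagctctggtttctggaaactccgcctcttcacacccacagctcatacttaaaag
Ifit3: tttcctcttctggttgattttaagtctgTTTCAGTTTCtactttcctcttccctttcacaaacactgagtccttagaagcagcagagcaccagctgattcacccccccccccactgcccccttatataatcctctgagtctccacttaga
Ifit1: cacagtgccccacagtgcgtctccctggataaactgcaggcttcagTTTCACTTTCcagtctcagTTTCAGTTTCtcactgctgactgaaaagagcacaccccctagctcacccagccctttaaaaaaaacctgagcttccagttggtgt

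Gm12250 and Ifit1 each hold 2 matches in this stretch, Isg15 holds 3 that overlap one another, and Ifit3 holds 1. In the full RefSeq window, 250 bases before the start to 50 after it, 21 of the 30 interferon-response genes with a sequence held the element on either strand, which is 70.0% of them. The share was 3.78% of the 10995 tested genes with a sequence and 3.85% of the 26 matrix genes with one. The interferon list holds 41 genes, and Gm12250 and Gm4841 were added to it for this count. A match is a feature of the letters only, and the interferon genes were listed for their known induction.

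Among sensors and effectors of the same list, Zbp1, a sensor of left-handed nucleic acid, stood at 3.97, 4.20 and 3.59 CPM at 6E13, against 0.378, 0.820, 1.54, 0.900 and 1.60 CPM in WT (1.88 ± 0.39). Igtp, another immunity-related GTPase, stood at 46.4, 23.1 and 26.3 CPM at 6E13, against 7.94, 8.11, 14.2, 8.73 and 16.5 CPM in WT (1.52 ± 0.37). The groups did not overlap in Zbp1 or Igtp, and neither was called. Without animal 250, 631 or 645 the median of the list was 0.67, 0.82 or 0.94, and 20, 22 or 25 members had an unadjusted p under 0.05 on the higher side. With only 6E13 and WT in the fit, 12 of the 41 were called higher, where 164 of 15279 genes were, and DESeq2 called 10, where 85 of 16410 genes were.

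**Figure D2:**
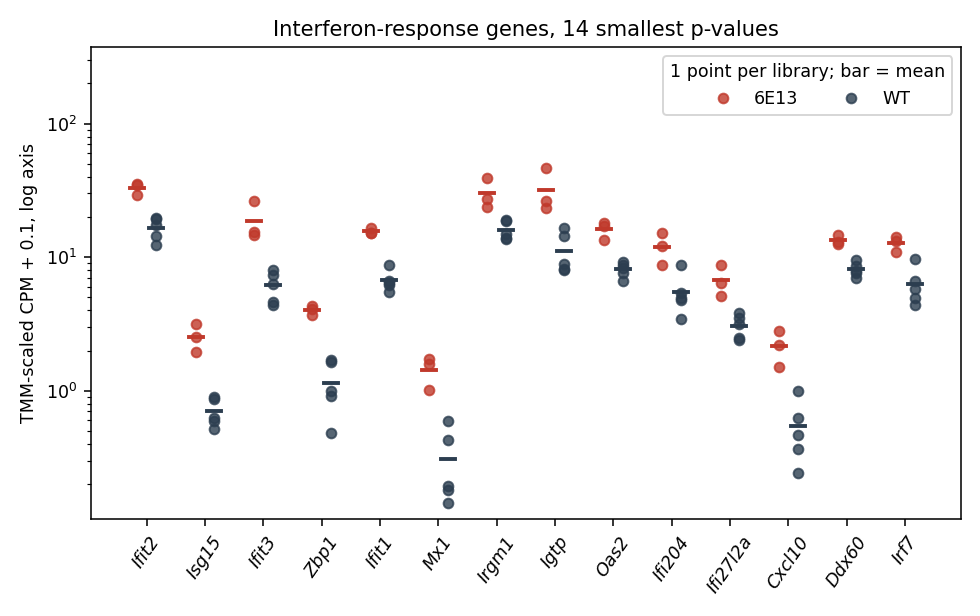
Levels of the 14 interferon-response genes with the smallest p-values, in TMM-scaled CPM plus 0.1 on a log axis, with 1 point per library, 6E13 (red) left of WT (dark) and a bar at each group's mean. For Ifit1 the 3 red points sit between 15 and 16.5 CPM, above the 5 dark points between 5.41 and 8.70 CPM.

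The called genes were set beside the cKO and 3E13 groups, each compared with the same WT libraries. Tests of 6E13 against cKO reuse the 6E13 libraries by which these genes were picked, so they are not separate support. Of the 12 mouse genes that rose, 9 had their largest fold change in cKO and their smallest at 6E13, namely Ltbp2, Cilp, Col12a1, Sfrp2, Pak3, Mfap4, Thbs4, Igfbp7 and Skil. None of these 9 was called between 6E13 and 3E13, where the direct test called 2 genes, Dbp and Coq10b. The order of the doses in these genes is therefore not shown to be a difference between them. The log2 fold change of Ltbp2 against WT was 6.40 in cKO, 5.02 at 3E13 and 3.02 at 6E13, that of Cilp was 5.15, 3.85 and 2.58, and that of Col12a1 was 5.07, 3.42 and 2.33. In the direct test of 6E13 against cKO, which called 16.8% of all genes, the 3 genes fell by 3.38, 2.56 and 2.74 on the log2 scale, with adjusted p = 0.0014, 0.0028 and 0.00086 in edgeR's quasi-likelihood test. The GTPases were called at both doses and not in cKO. Gm12250 stood at 0.775 to 0.981 CPM in cKO, 4.13 to 8.22 CPM at 3E13 and 2.06 to 6.98 CPM at 6E13. Its log2 fold change against WT was -0.02 in cKO, 2.64 at 3E13 and 2.05 at 6E13, and 6E13 exceeded cKO by 2.07 (adjusted p = 0.0020). Gm4841 had -0.26 in cKO, 4.03 at 3E13 and 3.94 at 6E13, and 6E13 exceeded cKO by 4.20 (adjusted p = 0.0028). Sat1 differed from both of these orders, with 1.41 in cKO, 0.36 at 3E13 (adjusted p = 0.37) and 1.20 at 6E13.

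**Figure D3:**
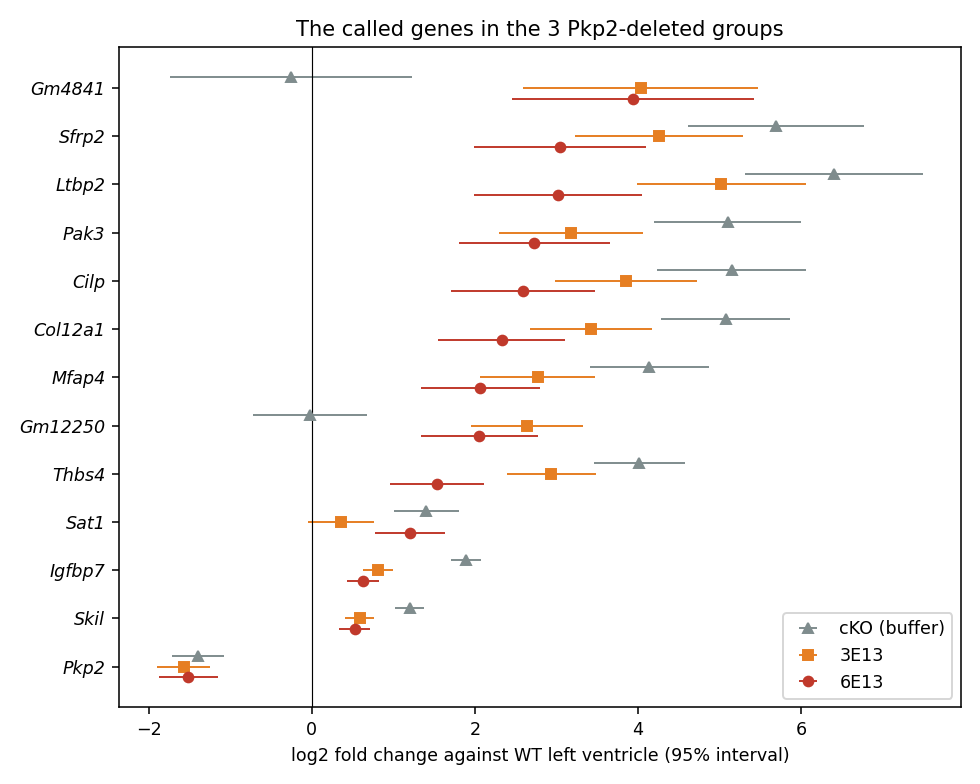
Log2 fold change against WT left ventricle, with 95% interval, of the 13 called mouse genes in cKO (grey), 3E13 (orange) and 6E13 (red), each compared with the same 5 WT libraries. Ltbp2 runs from 6.40 in cKO to 3.02 at 6E13, while Gm12250 and Gm4841 lie near 0 in cKO and between 2.05 and 4.03 in the treated groups.

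Within the interferon list, 7 of 41 genes were higher at 6E13 than in cKO, with 8.65% of all genes called on that side, and none was lower. Among them were Igtp, Irgm2, Tgtp2, Irgm1 and Gbp7, which are GTPases of the immunity-related or guanylate-binding families, and the chemokine Cxcl9. Igtp was higher by 2.25 (adjusted p = 0.0026) and Irgm2 by 1.5 (adjusted p = 0.014) on the log2 scale. Isg15 and Zbp1 differed from cKO by 0.06 and 0.02, since both were also raised in cKO, by 1.96 and 1.87 against WT. The list's median against WT was 0.44 in cKO, 0.91 at 3E13 and 0.84 at 6E13. Markers of T, NK and B cells, of which T and NK cells are a source of interferon-gamma, were sparse. The 19 tested had a median log2 fold change of 1.36, which ran from 0.147 to 1.69 over the alternatives. Of them, 6 had an unadjusted p under 0.05 on the higher side, against 4.80% of all genes, and none of these markers was called. Against WT their median was 1.25 in cKO and 1.90 at 3E13. Their summed level was between 19.2 and 41.0 CPM at 6E13, against 18.98 to 23.1 CPM in WT, and the ranges overlapped. Cd3e, part of the T cell receptor complex, stood at 1.67, 1.71 and 0.772 CPM at 6E13, against 0.189, 0.738, 0.413, 0.450 and 0.648 CPM in WT (1.49 ± 0.53, adjusted p = 0.576). The granule genes Prf1, Gzma and Gzmb were too low to be tested. The part that such cells have in the interferon genes was not tested.

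All 43 genes of the extracellular matrix list had a log2 fold change above 0 at 6E13, as had 51.1% of all genes, with a median of 0.91. The list held 4 calls, Cilp, Ltbp2, Col12a1 and Thbs4, and 31 members had an unadjusted p under 0.05, against 4.80% of all genes on the higher side. Postn, a matricellular protein of activated fibroblasts, stood at 252, 117 and 56.7 CPM at 6E13, against 21.0, 20.4, 35.2, 23.8 and 24.4 CPM in WT (2.51 ± 0.49, adjusted p = 0.108). Col1a1, the main fibrillar collagen, stood at 379, 169 and 112 CPM at 6E13, against 67.0, 57.3, 85.5, 70.9 and 75.2 CPM in WT (1.63 ± 0.43, adjusted p = 0.299). Col3a1 stood at 631, 328 and 217 CPM at 6E13, against 126, 112, 166, 128 and 155 CPM in WT (1.51 ± 0.36, adjusted p = 0.227). The 3 animals kept 1 order in these genes, with 250 highest and 645 nearest to WT, and groups did not overlap.

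The spread was widest in Tnc, which encodes tenascin C, at 82.5, 13 and 3.54 CPM at 6E13, against 1.18, 1.56, 4.19, 1.08 and 4.00 CPM in WT, so animal 645 lay inside the WT range. Lox, a crosslinking enzyme, likewise stood at 25.4, 14.9 and 3.41 CPM at 6E13, against 2.46, 2.38, 3.69, 4.50 and 2.06 CPM in WT. Animal 250 was the highest of the 3 in 30 of the 43 genes, 631 in 11 and 645 in 2. Without 250 the median of the list was 0.67 and 19 members had an unadjusted p under 0.05, and without 645 these were 1.03 and 32. The median of the list against WT was 2.57 in cKO, where 42 of 43 were called (19.7% of all genes were called on the higher side), 1.55 at 3E13, where 32 were called (1.97% of all genes on that side), and 0.91 at 6E13. Against cKO, 38 of the 43 fell at 6E13, with 8.16% of all genes called on that side. Against 3E13, none of the 43 was called at 6E13, with 0.0122% of all genes called. For 6E13 against WT, no member was called without animal 250 or without animal 631. Resting fibroblast markers had a median of 0.35 over 13 genes with no call, a sum of 992 to 1073 CPM at 6E13 and of 790 to 1023 CPM in WT, and their part in the matrix values was not tested.

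**Figure D4:**
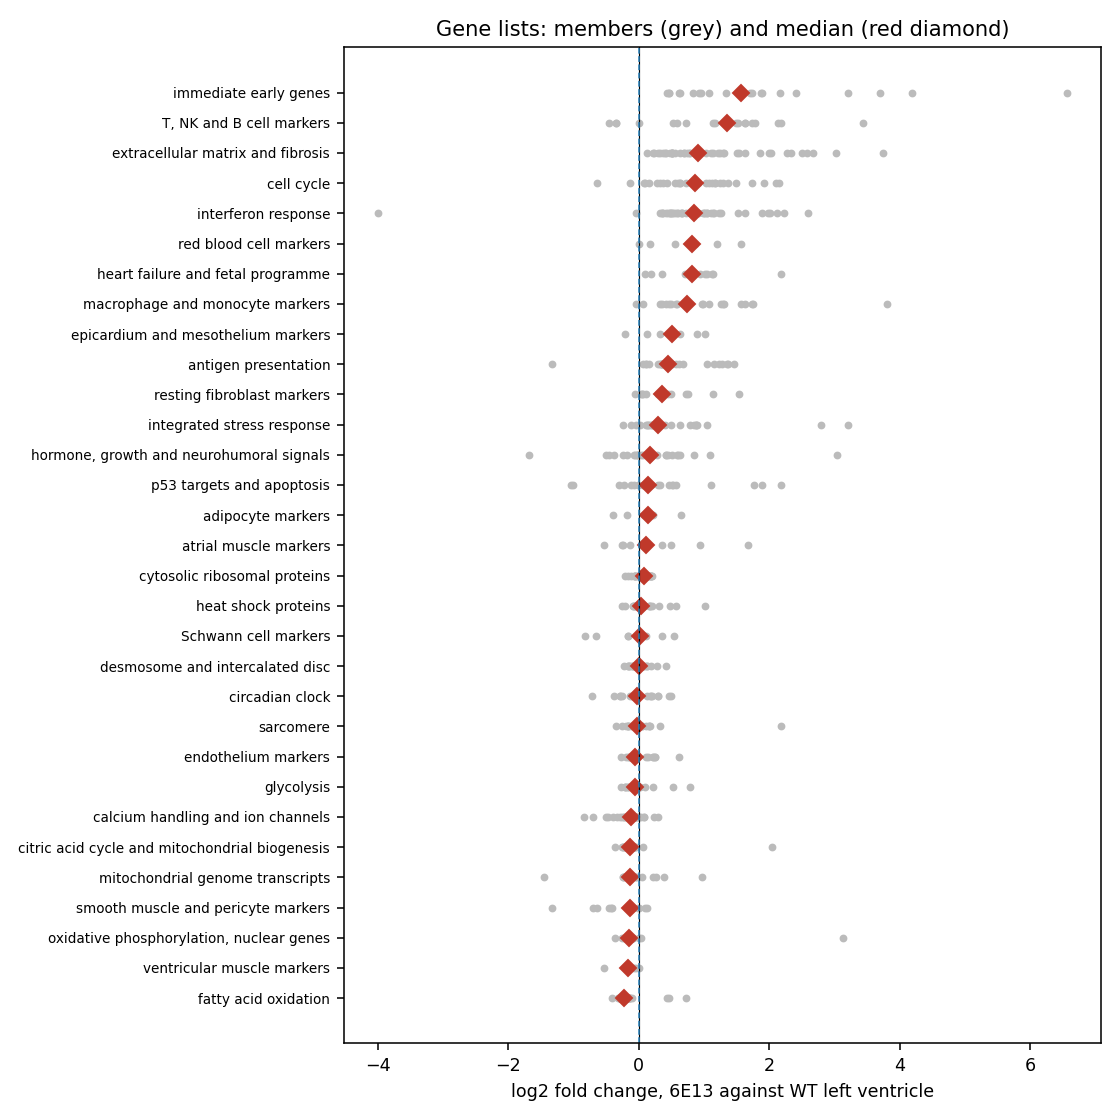
Log2 fold change of 6E13 against WT left ventricle for the tested members (grey points) and the median (red diamond) of 31 gene lists, ordered by median, with the median of all genes as a dashed line beside 0. The matrix list lies at 0.91 with no member below 0, and desmosome, sarcomere and energy metabolism lie between -0.23 and 0.00.

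Junction and contractile genes had medians close to 0, while energy metabolism genes leaned lower. None of 25 desmosome and intercalated disc genes was called, their median was 0.00, and all 25 had a 95% interval that stayed within 1 log2 unit of 0, against 63.5% of all genes. The median alone does not set 6E13 apart, since cKO against WT had -0.097 for this list. In cKO, 7 of the 25 were called higher and 7 lower, against 19.7% and 16.1% of all genes. Desmoplakin (Dsp), the partner that links plakophilin to intermediate filaments, stood at 1537, 1597 and 1942 CPM at 6E13, against 1574, 1635, 1834, 2009 and 1650 CPM in WT. The groups overlapped and the log2 fold change was -0.04, with a 95% interval of -0.49 to 0.41. Gja1, the gap junction protein connexin 43, stood at 633, 594 and 672.9 CPM at 6E13, against 649, 652, 643, 613 and 686 CPM in WT (-0.03, interval -0.44 to 0.37). In cKO, Gja1 had -1.07 against WT, and 6E13 exceeded cKO by 1.04 (adjusted p = 0.0034 in edgeR's quasi-likelihood test). Intervals of this width leave room for changes of a fraction of a log2 unit.

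The sarcomere list had a median of -0.02 over 26 genes with no call, and 23 intervals within 1 log2 unit. Its outlying member was Myh7, the slow myosin heavy chain that the mouse ventricle expresses before birth and under load. Myh7 stood at 734, 895 and 1596 CPM at 6E13, against 203, 163, 356, 200 and 266 CPM in WT. All treated animals were above all controls, and the log2 fold change was 2.18 ± 0.48 (adjusted p = 0.154). The adult partner Myh6 overlapped between groups at -0.04, with an interval of -0.67 to 0.59. Myh7 was also in the heart failure list, whose 13 genes were all above 0 with a median of 0.81 and none called. Of them, 4 had an unadjusted p under 0.05, against 4.80% of all genes on the higher side. That count was 2 without WT animal 248 and 7 without WT animal 636. Nppb, a natriuretic peptide of stretched ventricle, stood at 134, 148 and 116 CPM at 6E13, against 66.0, 38.4, 139, 95.3 and 68.5 CPM in WT, an overlap made by WT animal 636 (0.71 ± 0.39). Ctgf, a matricellular target of TGF-beta, stood at 81.1, 104 and 93.5 CPM at 6E13, against 41.3, 31.3, 54.9, 45.8 and 39.3 CPM in WT (1.13 ± 0.26, adjusted p = 0.218).

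Calcium handling and ion channel genes leaned lower, with a median of -0.12 and 7 of 30 above 0, but no call. Every 6E13 library lay below every WT library in 7 of them, against 4.05% of all genes. Ryr2, the calcium release channel of the sarcoplasmic reticulum, stood at 3594, 3711 and 3657 CPM at 6E13, against 4503, 5093, 4026, 4433 and 4287 CPM in WT (-0.29 ± 0.26, adjusted p = 0.986). Atp2a2, the pump that refills the store, stood at 8887, 8676 and 9262 CPM at 6E13, against 10729, 11983, 9974, 10295 and 10622 CPM in WT (-0.26 ± 0.27). Kcnd2, a subunit of the transient outward potassium current, had the smallest p of the list at 24.1, 24.6 and 25.7 CPM at 6E13, against 47.8, 53.4, 29.5, 34.8 and 36.7 CPM in WT (-0.70 ± 0.27, adjusted p = 0.658). Oxidative phosphorylation, fatty acid oxidation and citric acid cycle genes had medians of -0.14, -0.23 and -0.13 with no call, where cKO against WT had -0.80, -0.85 and -0.71. Of their 36, 30 and 30 genes, 33, 27 and 28 were below 0 at 6E13, where 51.1% of all genes were above 0. Every 6E13 library lay below every WT library in 9, 6 and 5 of them, against 4.05% of all genes. An unadjusted p under 0.05 on the lower side was found in 0, 0 and 1, against 1.45% of all genes. Ndufa9 and Mdh1 had higher fold changes at erratic low levels, and Mdh1 stood at 1.97, 2.67 and 16.9 CPM at 6E13, against 2.65, 2.34, 0.991, 1.48 and 1.30 CPM in WT, so that their values are uncertain.

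Immediate early genes, which respond within minutes to stimulation, had the highest list median, 1.57. Of 21 members, 16 had an unadjusted p under 0.05, against 4.80% of all genes on the higher side, and none was called. The high values were those of animal 631. Fos, a subunit of the AP-1 transcription factor, stood at 4.95, 149 and 12.7 CPM at 6E13, against 3.31, 1.84, 3.14, 5.17 and 1.72 CPM in WT (4.19 ± 0.95, adjusted p = 0.186). Egr1, a zinc finger factor, stood at 57.0, 530 and 89.6 CPM at 6E13, against 40.9, 38.5, 53.9, 46.6 and 32.2 CPM in WT. Atf3, a stress-induced factor, stood at 2.31, 40.6 and 4.45 CPM at 6E13, against 0.520, 0.820, 1.21, 4.77 and 1.26 CPM in WT. Animal 631 was the highest of the 3 in 19 of the 21 genes. Without it the median was 0.57 and 3 members had an unadjusted p under 0.05. The summed level of the list was 2022 CPM in that animal, and the integrated stress response list, which shares Atf3, had a median of 0.38 with 1 of 25 at an unadjusted p under 0.05 without it, against 0.29 and 6 of 25 with it.

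**Figure D5:**
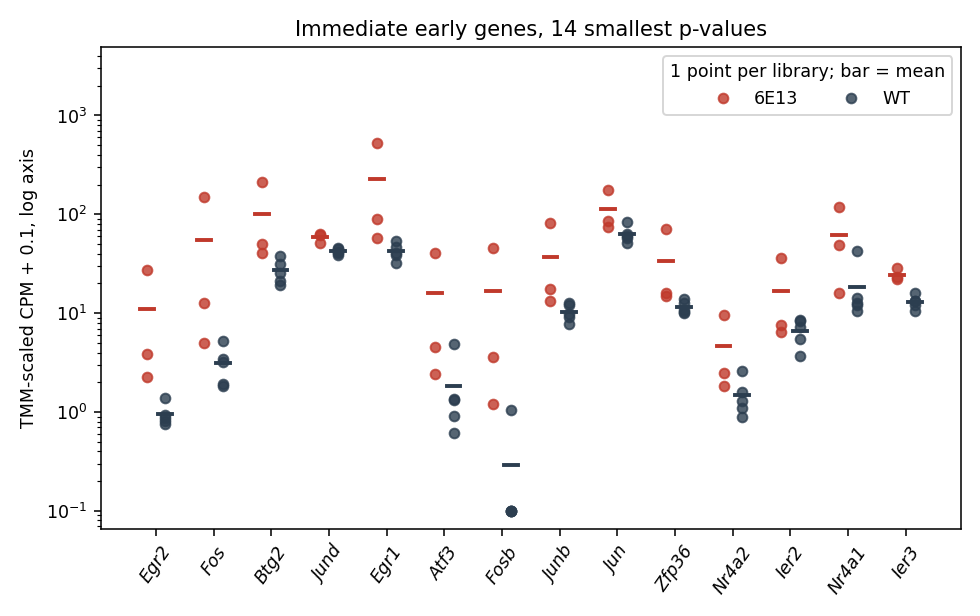
Levels of the 14 immediate early genes with the smallest p-values, in TMM-scaled CPM plus 0.1 on a log axis, with 1 point per library, 6E13 (red) left of WT (dark) and a bar at each group's mean. The single high red point in Fos, at 149 CPM, is animal 631, and the other red points are at 4.95 and 12.7 CPM.

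Macrophage and monocyte markers had a median of 0.75 over 23 genes. On the higher side 11 had an unadjusted p under 0.05, against 4.80% of all genes, and none of these markers was called. Their summed level was between 373 and 465 CPM at 6E13, against 196 to 238 CPM in WT and 449 to 2345 CPM in cKO. C1qb, a subunit of complement C1q made by resident macrophages, stood at 30.4, 24.5 and 32.5 CPM at 6E13, against 14.6, 13.8, 16.3, 14.6 and 14.8 CPM in WT (0.97 ± 0.21, adjusted p = 0.143). Lyz2, a lysozyme of myeloid cells, stood at 122, 104 and 123 CPM at 6E13, against 43.2, 40.7, 54.7, 52.4 and 47.3 CPM in WT (1.29 ± 0.35). Antigen presentation genes, which class II molecules lead, had a median of 0.45 with 9 of 24 at an unadjusted p under 0.05, against 4.80% of all genes on the higher side. That count was 3 without 6E13 animal 250 and 16 without WT animal 647. H2-Aa, a class II chain, stood at 60.4, 48.1 and 40.1 CPM at 6E13, against 14.3, 19.7, 17, 15.8 and 29.5 CPM in WT (1.36 ± 0.43, adjusted p = 0.464). The groups did not overlap in these 3 genes. The macrophage, interferon, antigen presentation and matrix lists all had medians above 0 against WT. Against cKO they did not share a direction. The median of 6E13 against cKO was -1.23 for macrophage markers and -1.74 for matrix genes. It was 0.51 for interferon genes and 0.10 for antigen presentation genes. The part of macrophages in those values was not tested.

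Among other cell types, endothelial markers had a median of -0.05 over 18 genes and smooth muscle markers -0.14 over 16, with no call in either. Smooth muscle myosin Myh11 stood at 24.9, 23.8 and 29.97 CPM at 6E13, against 42.9, 49.5, 29.7, 52.4 and 30.3 CPM in WT (-0.64 ± 0.25, adjusted p = 0.66). The groups overlapped only in that animal 645 lay above WT animal 636. Adipocyte markers had a median of 0.14 over 7 tested genes, and Adipoq, Plin1, Lep and 4 more were too low to test, with Plin1 and Ucp1 at 0 reads in all 8 libraries. Epicardium and mesothelium markers had a median of 0.52 over 7 tested genes, 6 of them above 0 and none called, and summed to between 183 and 251 CPM at 6E13, against 124 to 213 CPM in WT. Red blood cell markers were high in animal 645 alone, at a sum of 62.2 CPM, against 15.7 to 31.7 CPM in WT. Cell cycle genes had a median of 0.86 at low levels and no call. An unadjusted p under 0.05 on the higher side was found in 5 of 30, against 4.80% of all genes. That count was 2 without 6E13 animal 631, 3 without 6E13 animal 250, 3 without WT animal 626 and 13 without cKO animal 177. It was 16 with only 6E13 and WT in the fit, 18 with voom and 0 with limma on log2(TPM + 1), and the median ran from 0.33 to 1.11 over the alternatives. The number of all genes with an unadjusted p under 0.05, in either direction, varied with the fit too. It was 1025 of 16410 in the main fit and 1644 of 16209 without cKO animal 177. With only 6E13 and WT it was 2289 of 15279, with voom 2774 of 16410 and with limma 586 of 13503.

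On the lower side no mouse gene but Pkp2 was called. Nearest was Ankrd33b, a protein with ankyrin repeats, at 34.3, 43.5 and 41.0 CPM at 6E13, against 52.0, 61.1, 54.4, 54.8 and 52.5 CPM in WT (-0.47 ± 0.09, adjusted p = 0.0873 in edgeR's quasi-likelihood test). Alkbh8, an enzyme that modifies transfer RNA, stood at 3.53, 2.54 and 3.27 CPM at 6E13, against 6.43, 7.75, 6.25, 7.38 and 3.89 CPM in WT (-1.02 ± 0.22, adjusted p = 0.137). Igf2, a growth factor, stood at 14.8, 13.8 and 18.6 CPM at 6E13, against 26.1, 27.5, 20.1, 24.1 and 27.0 CPM in WT (-0.67 ± 0.19, adjusted p = 0.359). The groups were apart in all 3. Tln2, which links integrins to actin, had -0.36 ± 0.10 with groups apart as well.

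The genes that moved most in cKO hearts were picked by their fold change there against the same WT libraries. Genes picked for extreme values in cKO tend to lie nearer to WT in any other group. Their values at 6E13 therefore do not measure how far 6E13 lay from cKO. Spp1, or osteopontin, had 10.2 in cKO against WT, and at 6E13 it stood at 2.28, 0.963 and 0.182 CPM, against 0.047, 0.082, 0.193, 0 and 0.038 CPM in WT (3.80 ± 2.14, adjusted p = 0.896). Comp, a cartilage matrix protein, had 6.46 in cKO and stood at 0.917, 2.93 and 5.27 CPM at 6E13, against 0.567, 0.738, 0.771, 0.405 and 1.07 CPM in WT. Scn4b, a sodium channel subunit, had -2.99 in cKO and stood at 31.0, 36.5 and 13.3 CPM at 6E13, against 49.6, 27.3, 39.5, 48.1 and 25.4 CPM in WT (-0.50 ± 0.56). Arg1, a macrophage enzyme with 7.28 in cKO, was at 0.111 CPM or less in all 6E13 libraries, inside the WT range. Of the 5 genes that fell most in cKO, the carboxylesterase Ces1d had -3.18 there and -0.65 ± 0.57 at 6E13, and the kinase Mylk4 had -3.16 and -0.59 ± 0.43.

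Between the doses, 6E13 exceeded 3E13 in 2 genes (0.0122% of those tested) and was lower in 0. The unadjusted p was under 0.05 in 913 genes, and DESeq2 called 45. The transgene itself stood at 535, 333 and 372 CPM at 6E13, against 352, 167, 302 and 364 CPM at 3E13, which overlap. Dbp, a transcription factor driven by the circadian clock, stood at 65.2, 57.6 and 60.1 CPM at 6E13, against 13.7, 15.1, 7.62 and 8.17 CPM at 3E13 (2.45 ± 0.30, adjusted p = 0.00977 in edgeR's quasi-likelihood test). In WT it stood at 58.0, 57.1, 50.3, 39.1 and 60.7 CPM, so 6E13 differed from WT by 0.20 ± 0.28. Dbp was low in cKO as well, at 12.2, 20.3, 21.9 and 8.24 CPM, with a log2 fold change of -1.76 against WT. By the same test 6E13 exceeded cKO by 1.96 (adjusted p = 0.0010). Coq10b, a mitochondrial protein that binds coenzyme Q, stood at 27.1, 34.0 and 29.5 CPM at 6E13, against 16.9, 17, 15.2 and 15.8 CPM at 3E13 (0.89 ± 0.13, adjusted p = 0.032). Over 19 circadian clock genes, the summed level was between 576 and 757 CPM at 3E13, against 981 to 1057 CPM at 6E13. It was between 927 and 1078 CPM in WT and between 601 and 1043 CPM in cKO. Against WT, 5 of the 19 were called lower at 3E13 (0.53% of all genes) and 0 higher. In cKO 7 were called lower (16.1% of all genes) and 2 higher (19.7%), and at 6E13 none was called. Between the doses 1 of the 19 was called. The time of day at which hearts were collected is not given in the sources used here, and its part was not tested. The calls of Dbp and Coq10b were lost without 6E13 animal 645, 3E13 animal 252 or 3E13 animal 253, each of which left 0 calls.

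In the right ventricle of the same 3 treated animals, against 3 WT animals, 151 of 17307 genes were called (0.872%), 147 of them higher (0.849%). These WT animals, 636, 637 and 647, were also in the left ventricle comparison, so the right ventricle is not an independent set of animals. Of the mouse genes that rose in the left ventricle, values of Pak3, Thbs4, Igfbp7, Skil and Sat1 are not given here. Cilp had 4.10, Ltbp2 4.47, Col12a1 3.49, Sfrp2 3.57 and Mfap4 2.68 on the log2 scale in the right ventricle, each called. Gm12250 had 2.15 (adjusted p = 0.084) and Gm4841 3.55 (adjusted p = 0.05). The matrix list had a median of 1.52 with 19 of 43 called, and the interferon list 0.84 with 2 of 41. Markers of T, NK and B cells had a median of 1.91 with 4 of 18 called higher, against 0.849% of all genes. Whether the change differed between the ventricles was tested with the animal as a block, and 0 of 17981 genes were called by edgeR's quasi-likelihood test, with 811 at an unadjusted p under 0.05 and 0 called by voom. Without animal 631, 3 genes were called. A larger count in 1 ventricle is therefore not shown to be a difference between them.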

How the data were processed

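RNA of left and right ventricles was sequenced from 16 animals (28 libraries). Per the study's methods and the submitters' processing notes, the authors quantified reads with Salmon 1.8.0 against GRCm39 transcripts together with human PKP2, and deposited estimated counts per gene, TPM and transcript lengths. Salmon shares reads among similar transcripts by estimate, so close relatives are uncertain. Estimated counts were rounded to whole numbers here. A row without a gene name (0.000352% to 0.000971% of counts) was left out.

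All 16 left ventricle libraries entered 1 model (edgeR 4.0.16, R 4.3.3, TMM scaling, filterByExpr, quasi-likelihood F test, Benjamini-Hochberg adjustment over 16410 genes, threshold 0.05), which was tested on simulated data. Standard errors are the log2 fold change over the square root of F. The deposited TPM served the transgene ratio and an alternative fit. DESeq2 1.42.0 and limma 3.58.1 were alternatives. Mitochondrial shares were compared with scipy 1.17.1. Coordinates are from GENCODE M39. Intervals of fold changes come from the model and include the spread between animals, while the floor of 3 reads covers counting error only.

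Named genes were the label checks, every called gene, the 10 uncalled genes a side with the smallest p at 5 CPM or more without overlap, up to 4 genes a list with the smallest p, the 5 largest rises and falls in cKO, and genes named by the study. Others were chosen after their values were seen. Members and lists were chosen with earlier results of these data known. A member of the interferon list is not reported by name here.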

Additional observations from a re-analysis of the deposited data

Results flagged for a closer look

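In 3 genes, 1 WT library lay far from the other 4 by Dixon's ratio, with a critical value of 0.71 for 5 samples and about 1 such group in 20 by chance over 34 groups examined. Igfbp7 was lowest at 50.5 CPM in WT animal 626 (ratio 0.757). Ltbp2 was highest at 4.38 CPM (0.829) and Postn at 35.2 CPM (0.728), both in WT animal 636.

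The doses differed in 2 genes by edgeR's quasi-likelihood test. The log2 fold change of 6E13 against 3E13 was 2.45 for Dbp (adjusted p = 0.00977) and 0.895 for Coq10b (adjusted p = 0.032).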

How the results depend on the processing

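For 6E13 against WT, with 14 genes called, the count was 3 with length offsets, 182 with only the 2 groups in the fit, 98 with DESeq2 and 157 with voom and quality weights. It was 2 with limma on log2(TPM + 1), 2 on log2(TPM + 0.1) and 2 on log2(TPM + 1) without a filter, where the median log2 fold change of all genes was up to 0.115, against 0.01. RLE scaling, no filter, protein-coding genes alone and sex as a covariate gave 11 to 19. Leaving out 1 library gave 2 to 34. Only Pkp2 and the transgene were called in every alternative, and the other 12 kept their sign in all of them. For 6E13 against 3E13, with 2 called, the count was 1 with length offsets, 1 with sex as a covariate and 45 with DESeq2, and leaving out 1 library gave 0 to 3. The cause of these differences was not tested.

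Medians near 0 changed sign in some alternatives, in 16 of 27 for the desmosome list and 4 of 27 for the sarcomere list. The mitochondrial share kept its direction. No paired analysis was possible because 6E13 and WT left ventricles share 0 animals. For the difference between the ventricles, the fit with the animal as replicate block called 0 genes, the fit with no replicate block called 0, and leaving out 1 animal gave 0 to 3, the highest without animal 631. With 3 treated animals, 63.5% of genes had an interval within 1 log2 unit of 0.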
